A study of Caenorhabditis elegans with 2 samples.

Results

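The protein-coding genes of the nematode Caenorhabditis elegans whose names begin with ztf-, zfp-, klf- or egrh- were examined for chromatin bound by LSY-2, a zinc finger transcription factor. They were chosen by name in the Ensembl annotation and number 34 of 19973 protein-coding genes, with 25 ztf-, 3 zfp-, 3 klf- and 3 egrh- genes. ChIP-seq of the tagged protein was done on L1 larvae, taken whole with both sexes pooled per the labels. They were of strain OP367, which carries the unc-119(tm4063) allele on chromosome III and the transgene array wgIs367 for LSY-2 tagged with eGFP. The strain also carries unc-119 as a transgene. There was 1 group with 2 biological replicates and no second condition, stage or strain, so the values describe where the tagged protein was found. The sources used here do not state which promoter drives the tagged copy. Since larvae were taken whole, strong binding in few cells and weak binding in many cells cannot be told apart.

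Zinc fingers are small protein folds held by a metal ion. In the C2H2 kind, pairs of cysteines and histidines hold the zinc, and several fingers in a row commonly read DNA. Kruppel-like factors (klf- genes) and EGR factors (egrh- genes) are C2H2 families shared with mammals, while the ztf- and zfp- names cover proteins of several families. LSY-2 belongs to the C2H2 kind too, so these data show where a zinc finger protein was found at genes for others.

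The authors' list past the irreproducible discovery rate (IDR) threshold held 4218 peaks, which were the 4218 strongest of the 30000 peaks called on both replicates pooled. The pooled list was the input to IDR and is labelled as peaks and background, with −log10 q values down to 0.289. Its peaks below the IDR list can therefore include background. Each peak carries the authors' own signal, used here to rank and describe peaks within a list. The weakest peak of the IDR list had a signal of 42.2 and the median peak 87.4. A replicate summit lay within 200 bp of 99.1% of IDR peaks in both replicates, with a median log2 ratio of replicate 1 to replicate 2 of 0.34. The peak lists hold no read counts, so depth is unknown. The annotated locus of lsy-2 on X had no pooled peak in its promoter window or introns, and the nearest IDR summit was 124686 bp away. The unc-119 gene, mutated in the strain, had 3 IDR summits in its introns, and its strongest promoter peak, with a signal of 41.3, lay just under the IDR list. The strain carries both genes as transgenes too, so native and transgene copies cannot be told apart at these loci.

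Sequences from 6 peaks show what lay under the summits. They are 101 bases of the ce11 genome, plus strand, centred on the summit, and were chosen because they hold the strongest peaks at these genes whose 101 bases overlap no exon of a protein-coding gene, and the single klf- peak. Capitals mark the motifs GAGAGA and GACGCA, or the reverse complement of either.
ztf-7, promoter peak, V:9789989-9790089: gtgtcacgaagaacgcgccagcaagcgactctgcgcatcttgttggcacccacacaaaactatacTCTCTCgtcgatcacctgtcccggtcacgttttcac
zfp-3, promoter peak, X:1446929-1447029: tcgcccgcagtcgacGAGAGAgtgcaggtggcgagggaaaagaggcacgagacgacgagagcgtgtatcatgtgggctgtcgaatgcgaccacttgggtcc
zfp-1, strongest peak, III:8802097-8802197: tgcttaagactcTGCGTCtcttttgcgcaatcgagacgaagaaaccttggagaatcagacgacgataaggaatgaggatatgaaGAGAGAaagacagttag
zfp-1, next strongest peak, III:8795812-8795912: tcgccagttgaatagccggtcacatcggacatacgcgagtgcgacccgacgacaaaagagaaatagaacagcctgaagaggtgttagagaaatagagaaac
zfp-1, weaker peak, III:8800066-8800166: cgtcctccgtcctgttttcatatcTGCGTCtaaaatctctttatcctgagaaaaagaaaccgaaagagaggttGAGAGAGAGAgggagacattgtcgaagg
klf-1, intronic peak, III:2876090-2876190: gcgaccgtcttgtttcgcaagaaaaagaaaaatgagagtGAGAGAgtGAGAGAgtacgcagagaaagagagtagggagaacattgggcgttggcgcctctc

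The sequence at ztf-7 holds the reverse complement of GAGAGA to the right of the summit, and that at zfp-3 holds GAGAGA to the left. The strongest zfp-1 peak holds GAGAGA and the reverse complement of GACGCA, and so does the weaker one, where copies of GAGAGA overlap. The next strongest zfp-1 peak holds neither. The klf-1 peak has 2 separate copies of GAGAGA.

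A promoter peak, here an IDR peak with its summit between 1000 bp before and 200 bp after an annotated transcript start, was found at 6 of the 34 genes (17.6%, 95% exact interval 6.76 to 34.5). The share over all protein-coding genes was 16.9%, so the share of the zinc finger genes was at the background. No test of the share was made, and the interval covers the counting of genes only. The 6 genes were ztf-7, zfp-1, ztf-17, zfp-3, ztf-3 and zfp-2. By name, they were 3 of 3 zfp- genes, 3 of 25 ztf- genes, 0 of 3 klf- genes and 0 of 3 egrh- genes. An intronic peak, with its summit in an intron of any transcript and in no exon of the same gene, was found at 2 of the 34 genes, zfp-1 and klf-1 (5.88%, interval 0.720 to 19.7), against 3.41% of all protein-coding genes. Among genes with at least 1760.5 bp of intron, an intronic peak stood at 2 of 17 (11.8%), against 10.3% of 5067 protein-coding genes. Below that length it stood at 0 of 17, against 1.07% of 14906. This split, at the median intron length of the 34 genes, was chosen after the data were seen and was not tested. Counting either place, promoter or intron, 7 genes had an IDR peak (20.6%, against 18.4% of all protein-coding genes), with 11 peaks between them.

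The bound promoters included some of the stronger peaks of the list. The median signal of the strongest promoter peak was 304 over the 6 genes (range 48.1 to 632), against 121 over the 3385 protein-coding genes with a promoter peak. Among the 500 strongest peaks alone, 4 of the 34 genes had a promoter peak (11.8%), against 3.30% of all protein-coding genes. The peaks of ztf-17 and zfp-3, at ranks 457 and 465, lay just inside that cut. The gap was smaller with 1000 peaks (11.8% against 6.17%) and with 2000 (14.7% against 10.6%). At the 4218 peaks of the IDR list the shares were close, at 17.6% and 16.9%, and with longer lists they parted again, at 29.4% against 20.4% with 6000 peaks and 41.2% against 25.4% with 10000.

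**Figure D1:**
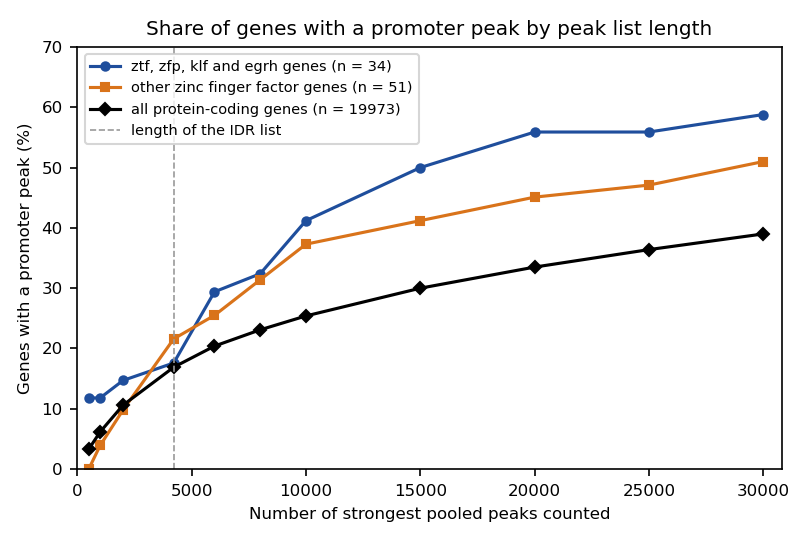
The share of genes with a promoter peak (y axis, percent) is plotted against the number of strongest pooled peaks counted (x axis), for the 34 zinc finger genes, 51 other zinc finger factor genes and all 19973 protein-coding genes. The 34 genes stood at 11.8% with 500 peaks, at 17.6% with the 4218 peaks of the IDR list (dashed line) and at 58.8% with all 30000 peaks, where all protein-coding genes stood at 39.0%.

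zfp-1 encodes a PHD finger protein, the worm counterpart of mammalian AF10, which works with a DOT1-type histone methyltransferase and was found in screens for RNA interference. It had the most IDR peaks of the 34 genes. It spans 14771 bp on chromosome III (8791535 to 8806305, plus strand) with 10 annotated transcript starts, and all 5 of its IDR summits lay in its introns. From the first start of the gene these summits stood 3361, 4327, 5916, 8581 and 10612 bp downstream, over a stretch of 7251 bp. At least 5 intronic IDR peaks were found at 10 protein-coding genes in all, 0.0501% of them. The introns of zfp-1 add up to 8921 bp, and all of those 10 genes were among the 666 protein-coding genes with at least that much intron. The part of intron length in this count was not tested.

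The strongest zfp-1 peak (8801900 to 8802375) had a pooled signal of 404, rank 293 of the IDR list, with 241 in replicate 1 and 158 in replicate 2 (mean 199.8 ± 58.8, SD, n = 2). Its summit lay 672 bp upstream of the last annotated start, so it counted as both an intronic and a promoter peak. The next (8795671 to 8796061) had a pooled signal of 377, with 222 and 166 in the replicates (mean 194 ± 39.2, SD, n = 2). It lay 1453 bp downstream of the nearest start, outside every promoter window. The first of these 2 peaks was the higher in replicate 1 and the second was the higher in replicate 2.

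Between them, the peak at 8799977 to 8800340 had a pooled signal of 225, with 133 and 95.1 in the replicates (mean 114 ± 26.8, SD, n = 2). The peak at 8797223 to 8797559 had 150.4, with 81.6 and 73.4 (mean 77.5 ± 5.78, SD, n = 2), and its summit, 947 bp upstream of an inner start, also counted for the promoter and lay in the window of a non-coding gene, F54F2.13. The peak nearest to the beginning of the gene (8794814 to 8795006) was the weakest, with a pooled signal of 115 and with 76.1 and 49.9 in the replicates (mean 63.0 ± 18.5, SD, n = 2). All 5 were kept when the strongest 4218 peaks of either replicate alone were used. The first 817 bp of zfp-1 overlap ztf-1, which runs the opposite way and had no IDR peak.

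**Figure D2:**
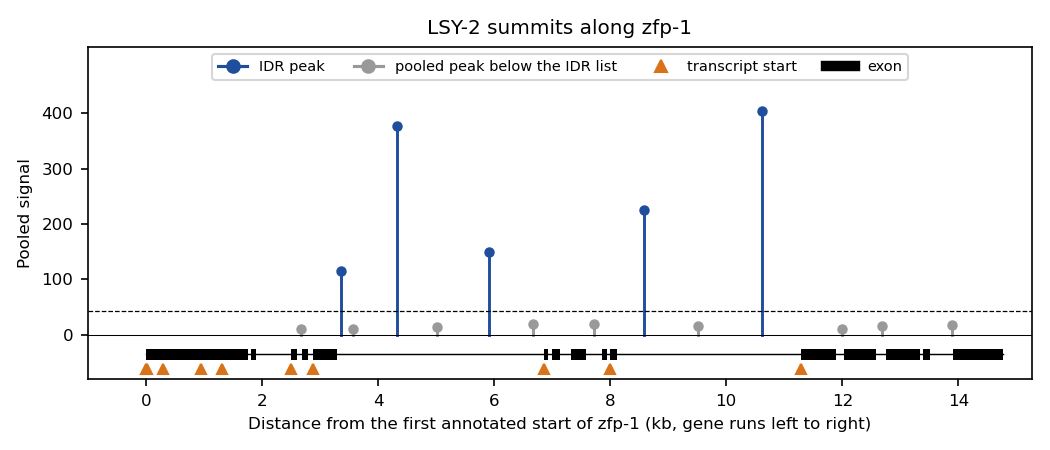
Pooled signal (y axis) of LSY-2 summits is plotted along zfp-1 (x axis, kb from its first annotated start), with exons as black boxes and transcript starts as triangles. The 5 IDR peaks, with signals from 115 to 404, stand between exon blocks and above the dashed line at 42.2, the weakest signal of the IDR list, while the other pooled peaks in its introns reach at most 19.8.

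zfp-3, which RefSeq names a C3H1-type protein, a kind of zinc finger held by cysteines and a single histidine, had a promoter peak on X (1446820 to 1447127). Its summit lay in intergenic sequence 336 bp upstream of the start. The pooled signal was 303 (rank 465), with 156 in replicate 1 and 143 in replicate 2 (mean 149.6 ± 9.17, SD, n = 2), so the replicates were close. The introns of zfp-3 held only weaker pooled peaks, the strongest with a signal of 27.3.

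zfp-2, a C2H2 protein, had a promoter peak on II (9557445 to 9557784) with its summit 35 bp upstream of the start and the lowest signal of the 11 peaks, 48.1 (rank 3743). Replicate 1 gave 15.6, which ranks 7293 in its list, and replicate 2 gave 33.5, which ranks 2484 (mean 24.6 ± 12.7, SD, n = 2). At the other 10 peaks replicate 1 was the higher, as it was at 3248 of the 4179 IDR peaks with a summit in both replicates. The log2 ratio of replicate 1 to replicate 2 was -1.10 at zfp-2 and between 0.12 and 0.61 at the others, against the median of 0.34 over the whole IDR list. With the 4218 strongest peaks of replicate 1 alone, zfp-2 had no promoter peak, and ztf-8 had one.

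Among the ztf- genes, ztf-7 had the strongest peak, on V (9789880 to 9790212), with a pooled signal of 632 and rank 164. Replicate 1 gave 364 and replicate 2 gave 268 (mean 316 ± 67.5, SD, n = 2). The summit lay in intergenic sequence 332 bp upstream of the start, and the window of a non-coding gene, F46B6.15, held it too.

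ztf-17 had a promoter peak on II (7870718 to 7870961) with a pooled signal of 304 (rank 457), from 179 in replicate 1 and 120.0 in replicate 2 (mean 149.6 ± 41.8, SD, n = 2). Its summit lay in intergenic sequence 684 bp upstream of the start. It was the only 1 of the 11 peaks with ACCGTA near the summit.

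ztf-3 had the only peak whose summit lay in an exon, in an untranslated part of its own exon 12 bp downstream of the start, on I (289083 to 289269). The pooled signal was 159 (rank 1086), from 82.0 in replicate 1 and 75.6 in replicate 2 (mean 78.8 ± 4.50, SD, n = 2). The 3 bound ztf- genes thus spanned a wide range of signal, and in both replicates the peak of each ranked 1193 or better.

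**Figure D3:**
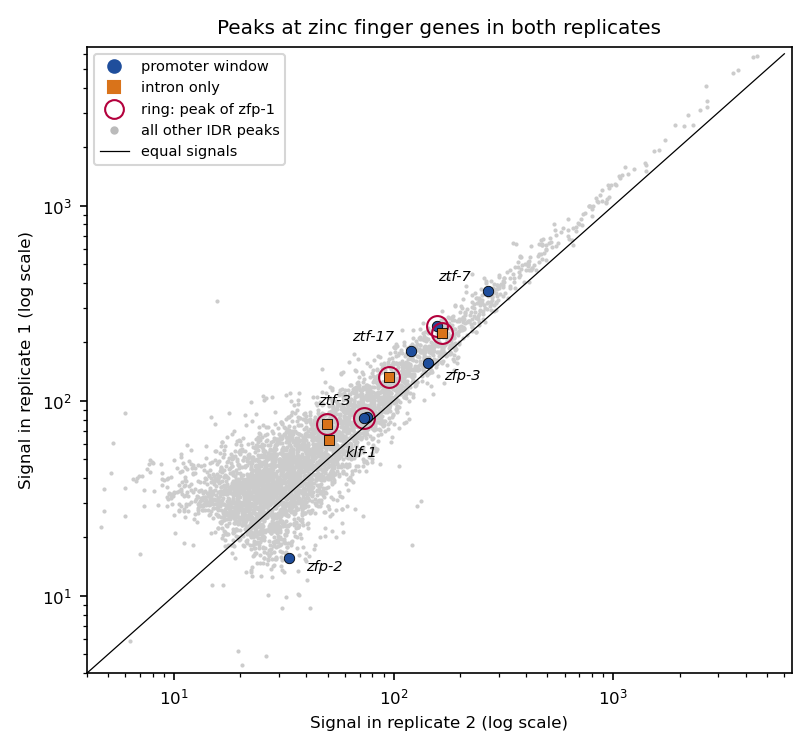
Signal in replicate 1 (y axis) is plotted against signal in replicate 2 (x axis), both on log scales, for the 11 IDR peaks at zinc finger genes and, in grey, for all other IDR peaks with a summit in both replicates. Points above the line have more signal in replicate 1, as 10 of the 11 do, and zfp-2 lies below it with 15.6 and 33.5.

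The Kruppel-like factors were bound at 1 of 3 genes. klf-1, known for its part in fat storage and life span, had no promoter peak but an intronic one on III (2875970 to 2876309), 1322 bp downstream of the start. Its pooled signal was 112 (rank 1627), from 62.8 in replicate 1 and 50.6 in replicate 2 (mean 56.7 ± 8.61, SD, n = 2). In its promoter the strongest pooled peak had a signal of 22.0, under the IDR list. klf-3, known for its part in fat metabolism and reproduction, had promoter peaks of at most 13.7, and klf-2 had no pooled peak in its promoter window or introns.

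None of the EGR genes had an IDR peak in these places. egrh-2 came closest, with a promoter peak of 31.5 that also lay in the window of lep-2, with a mean of 16.6 ± 4.86 (SD, n = 2) over the replicates. egrh-3 had an intronic peak of 18.9 that had no summit within 200 bp in replicate 1. egrh-1, which acts in the somatic gonad to restrain oocyte maturation, had an intronic peak of 10.8 with no summit within 200 bp in either replicate.

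In their promoter windows and introns, the remaining genes had only peaks below the IDR list, which can include background, or none. Just under that list stood the promoter peak of ztf-8, whose protein works in the DNA damage response of the germline, with a pooled signal of 40.3 (rank 4416). Its replicate values differed widely, with 36.0 in replicate 1 and 8.19 in replicate 2. The summits they come from lay 77 and 188 bp from the pooled one. The second is close to the 200 bp limit and may not belong to the same peak. Next came the promoter peak of ztf-9 (37.9, from 23.3 and 19.5), which lay in the window of ZK287.7 too. An intronic peak of ztf-16, a gene known for its part in amphid sheath glia, had 37.6, from 15.0 and 27.2. The promoter peak of ztf-23 had 34.4, from 14.8 and 15.3, and lay in the window of pign-1 too. In ztf-16, 4 pooled peaks lay in introns and the strongest entered the list when replicate 2 was used alone. The promoter peaks of ztf-14 (25.2), ztf-29 (21.3), ztf-13 (19.9), ztf-27 (18.7) and ztf-22 (16.2) were weaker. The strongest peak of ztf-6 (21.0) was intronic, with a promoter peak of 11.9. ztf-30 (20.7), ztf-1 (18.6) and ztf-26 (12.4) had pooled peaks in introns alone. No pooled peak in either place was found at 10 genes, which were ztf-2, ztf-4, ztf-11, ztf-15, ztf-18, ztf-20, ztf-25, ztf-28, ztf-31 and klf-2. Among these, ztf-11 is a MyT1-type factor known to promote the making of neurons.

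**Figure D4:**
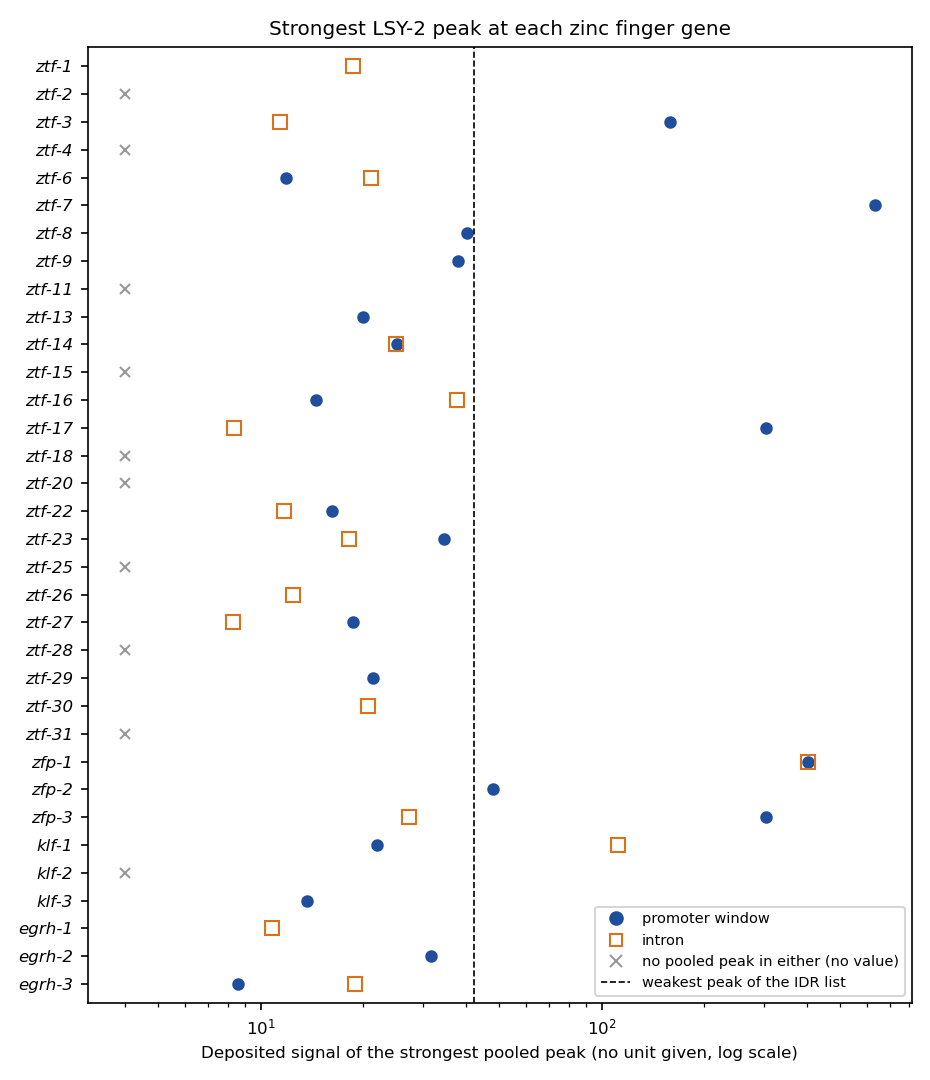
The deposited signal of the strongest pooled peak (x axis, log scale) is plotted for each of the 34 genes (y axis), with promoter windows as filled circles, introns as open squares and genes with no pooled peak as crosses at the left, which have no value. The dashed line marks 42.2, the weakest signal of the IDR list. 7 genes have a symbol to the right of it and 10 are crosses.

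Peaks of the whole pooled list, which holds background as well as peaks, were common at these genes. The shares below are therefore not shares of bound genes. With all 30000 pooled peaks, a promoter peak stood at 20 of the 34 genes (58.8%, interval 40.7 to 75.4), against 39.0% of all protein-coding genes, and an intronic peak at 16 (47.1%, interval 29.8 to 64.9), against 22.2%. The 34 genes were longer than most, with a median span of 3380.5 bp and 1760.5 bp of intron, against 2027 and 722 bp over all protein-coding genes. Among genes with at least 1760.5 bp of intron, 10 of 17 zinc finger genes had an intronic pooled peak (58.8%), against 55.6% of 5067 protein-coding genes. Below that length it was 6 of 17 (35.3%) against 10.9% of 14906. At or above the split the intronic shares were close, and below it the share of the zinc finger genes was higher. Intron length was not matched on either side, and its part was not tested. The protein-coding genes counted here include the zinc finger genes. The 6 shorter zinc finger genes with such a peak had 1014 to 1693 bp of intron. The split was chosen after the data were seen, and no test was made. Of the 60 peaks at these genes below the IDR list, 26 had a summit within 200 bp in both replicates (43.3%, against 39.3% of all such pooled peaks), 30 in a single replicate and 4 in neither.

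No bound promoter was shared with another protein-coding gene. None of the 7 promoter peaks lay in the window of another protein-coding gene, whereas 888 of all 2658 protein-coding promoter peaks did (33.4%). The windows of non-coding genes held 2 of the 7, at ztf-7 and at zfp-1. In each of the 7, the nearest protein-coding start was that of the zinc finger gene itself. The peaks were 187 to 476 bp long, with a median of 337 bp, and the replicate summits lay at most 47 bp from the pooled ones.

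Near the summits, GAGAGA on either strand was found in 9 of the 11 peaks, against 1209 of 4218 IDR peaks (28.7%). The 9 peaks belong to 6 of the 7 bound genes, and ztf-17 was the gene without it. In zfp-1, which supplies 5 of the 11 peaks, 4 held it, so that 5 of 6 did elsewhere. Among the 2109 strongest IDR peaks the share was 27.5%, and 8 of the 10 zinc finger peaks in that range held the motif. GACGCA stood in 3 of the 11 peaks, 2 of them at zfp-1 (17.4% of all IDR peaks), and ACCGTA in 1 (7.73%). These motifs had been picked from these data before, were searched on both strands of the 101 bases. GAGAGA and GACGCA share their first letters, and none of the 3 contains another. A match is a description and not a binding site. The GC content of the 101 bases had a median of 48.5% over the 11 peaks and 45.5% over all IDR peaks.

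The proteins differ more than their names. A C2H2 pattern (a pair of cysteines 2 to 4 residues apart and, after 12 residues, a pair of histidines 3 to 5 residues apart) was found in the annotated coding sequence of 30 of the 34 genes, against 1.22% of all protein-coding genes. The genes were chosen by zinc finger names, so a high share follows from the choice. The 4 without it were zfp-1, zfp-3, ztf-9 and ztf-11. RefSeq names ztf-9 a C2H2-type domain-containing protein, so a lack of matches to this pattern does not mean a lack of C2H2 fingers. Of the 7 bound genes 5 had the pattern, and of the 27 others 25 had it. The number of matches in the bound genes ran from 0 in zfp-1 and zfp-3 to 7 in zfp-2, and the highest count, 8 in ztf-16, was at a gene with no IDR peak. ztf-1 is named a homolog of heterogeneous nuclear ribonucleoprotein C by RefSeq, with 4 matches.

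Other zinc finger factor genes, a list of 52 names of which 51 were found, had promoter peaks at 11 (21.6%, interval 11.3 to 35.3), against the same 16.9%. Their peaks were weaker, with a median signal of 84.9 over the strongest peaks of these 11 genes. None was among the 500 strongest, though the peak of lin-36 lay just past that cut, at rank 532. The difference rests on few genes and was not tested. The strongest stood at lin-36 (269) and lin-13 (205), repressors of vulval fate of the synMuv group, followed by sma-9, a schnurri-type factor of BMP signalling (140.0), and hinf-1 (137). The start of uev-1 lies nearer to the hinf-1 summit. Then came mep-1, which keeps germline genes off in somatic cells (103), eor-1 (84.9), the tail factor tlp-1 (73.9), the sex determination genes tra-4 (61.3) and sdc-1 (60.9), and lir-3 (57.9). spr-4, a suppressor of presenilin mutants, was the weakest (50.1), and its peak had no summit within 200 bp in replicate 2. In introns, IDR peaks stood at 2 of the 51, sma-9 (strongest 213) and the spalt-type gene sem-4 (56.2).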

How the data were processed

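Peak lists on the ce11 build were used for each replicate, for both replicates pooled and after IDR. Per the text listings deposited with them, they were called against a control alignment. Which aligner and peak caller were run, and the IDR threshold, is not stated in the labels or listings used. The signal is a score the authors gave each peak, whose statistic is not stated. The deposited −log10 q value was 4.16 at every IDR peak and was not used to rank. Lists on ce10 were not used.

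Summits, counted from 1, were placed on Ensembl release 115 genes (WBcel235, the same assembly), and peaks and genes lay within its chromosome lengths. A replicate value is that of the nearest summit within 200 bp, and 1 summit may serve several pooled peaks. Proteins were translated from annotated coding sequence, and product names came from RefSeq. Named were all 34 genes and up to 10 others with a promoter peak, with lsy-2 and unc-119; spr-4 and sem-4 were added after their values were seen. The genes, lists and motifs were chosen with earlier results of these data known. Alternatives covered stronger, weaker and single-replicate peaks, other windows, overlap, the nearest start and wider flanks. Placement was tested on simulated summits. Intervals are 95% exact (Clopper-Pearson) and cover counting only. Python 3.11.15, numpy 2.4.6, scipy 1.17.1 and matplotlib 3.10.9 were used.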

Additional observations from a re-analysis of the deposited data

How the results depend on the processing

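The count of 6 genes with a promoter peak ranged from 4 to 8 over the alternatives that kept to peaks as strong as the IDR list. Windows of 500 bp upstream to 100 bp downstream gave 4, without zfp-1 and ztf-17, and 11.8% stood against 13.8% of all protein-coding genes. Windows of 2000 bp upstream gave 8, with egrh-2 and ztf-8 added (23.5% against 21.4%). The nearest IDR summit to egrh-2 (signal 68.7) lay 1751 bp upstream of it but 80 bp from the start of lep-2. Giving each summit to the nearest start kept all 6 (17.6% against 12.5%). The 2109 strongest peaks left 5, without zfp-2. Either replicate alone gave 6, with ztf-8 in place of zfp-2 in replicate 1. Intronic peaks stood at 2 or 3 genes in every alternative but the whole pooled list. With that list, counts were 20 genes for promoters, 16 for introns and 26 for the other zinc finger factors, since it holds 30000 peaks and not 4218. Those other factors fell to 5 with the 2109 strongest peaks (9.80% against 11.0%). The median signal of 304 in the pooled list was 168 in replicate 1 and 132 in replicate 2, with summits matched within 100, 200 or 500 bp, and the cause was not tested. Without zfp-1, which was tried only once the data had been seen, GAGAGA stood in 5 of 6 peaks and GACGCA in 1. Flanks of 100 bp gave 10, 4 and 1 of 11 peaks for the 3 motifs, and 42.5% of all IDR peaks held GAGAGA. Depth is unknown, so weak peaks cannot be told from none by depth. No paired analysis was possible because there is 1 group.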

Other observations

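IDR summits also lay just past the far end of some zinc finger genes. How often this occurs over all protein-coding genes was not counted. The nearest IDR summit to ztf-8 lay 66 bp downstream of the gene (signal 45.9), that of ztf-9 104 bp downstream (147), that of ztf-27 118 bp downstream (167) and that of ztf-13 146 bp downstream (236). The nearest protein-coding start to these summits belonged to ZC395.5 (841 bp away), rbx-1 (413 bp), T09F3.2 (2903 bp) and sec-3 (168 bp). At ztf-6, egrh-1 and ztf-22 the nearest IDR summit lay upstream, and its nearest protein-coding start was that of the gene itself. These summits lay 3386 bp from ztf-6 (signal 56.1), 4690 bp from egrh-1 (114) and 5785 bp from ztf-22 (76.3). All of these summits lay outside the promoter windows and introns of the zinc finger genes and were not counted for them. Over the 27 genes with no IDR peak in their promoter or introns, the nearest IDR summit lay a median of 4690 bp from the gene. Over all 34 genes, bound ones included, the median was 3061.5 bp, against 7666 bp over all protein-coding genes. The farthest was 146433 bp, at ztf-25 on V. These distances were looked up after the data were seen and were not tested.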
